A study of Mus musculus with 6 samples.

Results

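The HOX genes are the homeobox genes of the HOXA, HOXB, HOXC and HOXD clusters. All rows of the FPKM table whose symbol is Hox followed by a cluster letter and a paralog number were taken, which gave 39 protein-coding genes among 24354 gene rows. The libraries came from choroid plexus (ChP) of mice of the genotype FoxJ1:cre x bacTRAP (EGFP:L10a), with 3 adult samples taken at 60 days and 3 samples of embryonic day 16.5 (E16.5), and no sample without the transgenes was compared. TRAP (translating ribosome affinity purification) pulls down ribosomes that carry the EGFP-tagged protein L10a together with the mRNA on them, here from cells in which Cre driven from the Foxj1 promoter had switched the tag on. The labels do not name the ventricle, and the study's methods give the ChP of the lateral ventricle. It is not settled whether a replicate stands for 1 animal or a pool, since the methods speak of pools and GEO's design text of 3 mice at each age.

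HOX proteins are transcription factors that bind DNA through the homeodomain and give cells their position along the body axis. Within a cluster the genes lie in the order in which they are expressed from head to tail, so that low paralog numbers have the most anterior limits, in the hindbrain, and high numbers act in the posterior trunk, the limbs and the urogenital system. The forebrain, from which the ChP of the lateral ventricle grows, forms in front of the HOX domain, while the ChP of the fourth ventricle arises from the hindbrain.

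The 39 genes were matched by symbol to GENCODE M21, the annotation of GRCm38 (mm10), the build of the files. HOXA lies on the minus strand of chr6:52155590-52260880 and holds 11 members, and the other clusters lie on the plus strand. HOXB spans chr11:96194316-96368256 with 10 members, HOXC spans chr15:102921103-103036852 with 9 members and HOXD spans chr2:74668310-74765142 with 9 members. Each span is 96.8 to 173.9 kb long, of which HOXB is the longest and HOXD the shortest. A homeobox of 180 bases, the stretch that encodes the homeodomain, was found in the coding sequence of all 39 members. The homeoboxes of Hoxb7 and Hoxd8, the 2 members with the highest mean FPKM, are printed from the GENCODE M21 transcripts, 5′ to 3′ and as read on the coding strand. Capitals mark bases 142 to 159 of the homeobox, the codons of the core of the recognition helix, which sits in the major groove of DNA.
Hoxb7: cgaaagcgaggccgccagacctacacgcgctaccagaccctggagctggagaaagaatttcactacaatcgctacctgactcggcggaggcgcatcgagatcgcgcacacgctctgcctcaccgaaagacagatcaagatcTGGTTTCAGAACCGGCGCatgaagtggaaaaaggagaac
Hoxd8: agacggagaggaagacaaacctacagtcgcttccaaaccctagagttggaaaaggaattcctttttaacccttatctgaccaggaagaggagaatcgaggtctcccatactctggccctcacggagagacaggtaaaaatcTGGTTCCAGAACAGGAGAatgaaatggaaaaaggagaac

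Between members of the same paralog group the homeobox was 67.2% to 93.9% identical in sequence (median 80.6% over 42 pairs), and between members of different groups 46.1% to 88.9% (median 60.6% over 699 pairs). The reads were 50 bases long, so that a read could match 2 members exactly only where both share 50 identical bases. Matches with mismatches were not searched for. Across the whole coding sequences, the longest identical stretch of a pair had a median of 14 bases over 741 pairs, and 1 pair, Hoxa6 and Hoxb4, reached 50 bases with a stretch of 52. For Hoxb1, Hoxb7 and Hoxd8, 0% of the 50-base stretches of their transcripts recurred in another annotated gene. In all, 17 members shared no such stretch with any gene, 11 shared under 5% of theirs, and the other 11 shared more, up to 60.3% for Hoxd3, whose transcripts overlap those of Hoxd4 and of an antisense gene. Hoxa3 shared 24.3%. The strand setting of the quantification is not given in the sources used here, so that reads of a member and of its antisense neighbour cannot be told apart.

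In adult ChP no HOX gene was listed above 0. All 117 entries of the 39 members in the 3 adult libraries were 0 FPKM (reads scaled to transcript length and to the depth of the library). At E16.5, 112 of 117 entries were 0, and 5 entries of 4 members were above it. Over both ages, 35 of 39 members (89.7%) were at 0 in all 6 samples, against 38.8% of all genes in the table and 31.9% of the protein-coding genes. The share of members listed above 0 at E16.5 alone was 10.3%, beside 11.6% of all genes.

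**Figure D1:**
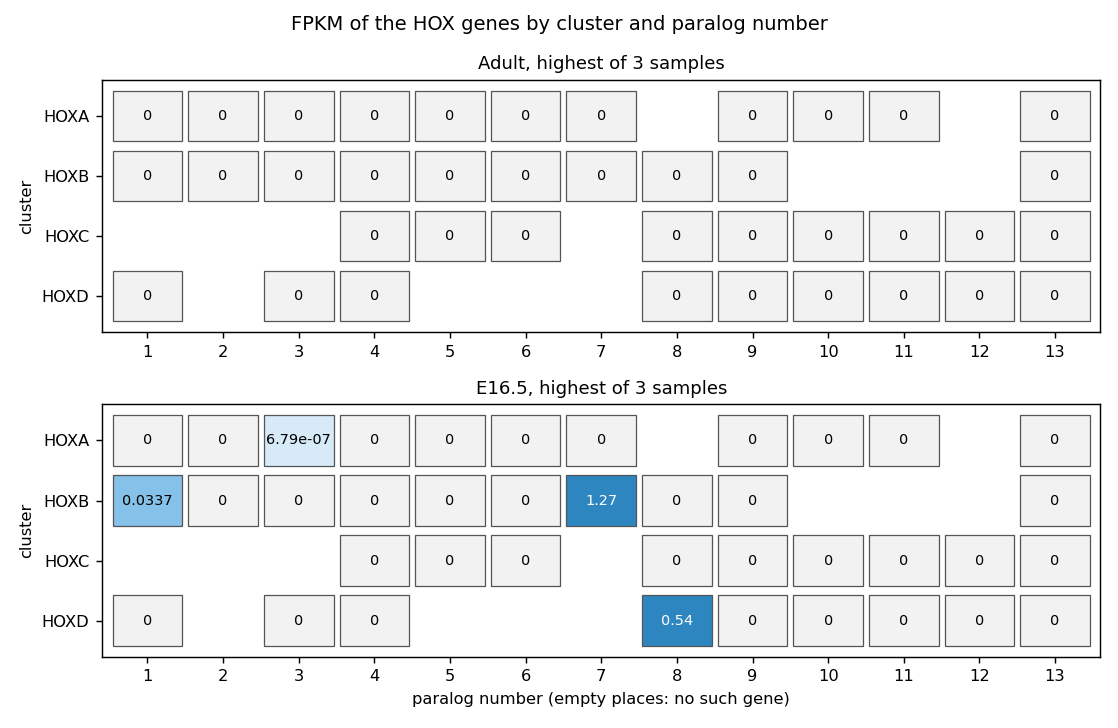
Highest FPKM over the 3 adult samples (top) and the 3 E16.5 samples (bottom) for each HOX gene, with the paralog number along the x axis and the cluster along the y axis; grey boxes are at 0 and darker blue is a higher FPKM. All adult boxes are at 0, and at E16.5 the boxes above 0 are Hoxa3 (6.79e-07), Hoxb1 (0.0337), Hoxb7 (1.27) and Hoxd8 (0.540).

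By cluster, the members above 0 were 1 of 11 in HOXA, 2 of 10 in HOXB, 0 of 9 in HOXC and 1 of 9 in HOXD, all of them at E16.5. By paralog number, they were 2 of 12 in groups 1 to 4, 2 of 11 in groups 5 to 8 and 0 of 16 in groups 9 to 13. No paralog group had more than 1 member above 0. The genes beside Hoxb7 in its cluster, Hoxb6 and Hoxb8, and the gene next to Hoxd8, Hoxd9, were at 0 in all 6 samples.

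Hoxb7, a central gene of HOXB, had the highest value of any member. Its FPKM was 1.27 in E16.5 replicate 1 and 0 in E16.5 replicates 2 and 3 and in each adult replicate. The value came from a single library, and the ages overlapped at 0. Hoxd8, from the middle of HOXD, was the member found in more than 1 library, with 0.540 FPKM in E16.5 replicate 1, 0.214 in E16.5 replicate 2, 0 in E16.5 replicate 3 and 0 in each adult replicate. The 2 ages overlapped at 0 for this gene. Hoxb1, an anterior gene that marks the fourth rhombomere of the hindbrain, had 0.0337 FPKM in E16.5 replicate 2 and 0 in the other 5 libraries. Hoxa3, a gene of the caudal hindbrain and the pharyngeal arches, was listed at 6.79e-07 FPKM in E16.5 replicate 1 and at 0 in the other 5 libraries. Hoxa3 lies outside the 3 highest members and is named after its value was seen.

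FPKM carry no depth of their own, so the FPKM worth 1 read was read from the steps among low values of 1305 genes with a single unshared transcript. One read in a kilobase was worth 0.114 to 0.327 FPKM in the adult libraries and 0.0653 to 0.0804 FPKM at E16.5, so that the E16.5 libraries were 4.07 to 5.01 times as deep as the shallowest adult library and the other adult libraries 1.29 and 2.87 times. The estimate is a rough one, from 23 to 37 low values in each library, of which 62.5% to 91.3% lay within 0.1 of a whole read. The step was chosen to bring these same values close to whole reads, so that this share is no check on it.

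On this scale the value of Hoxb7 in E16.5 replicate 1 corresponded to about 17.2 reads. The values of Hoxd8 corresponded to about 16.4 reads in replicate 1 and about 8.0 reads in replicate 2. Hoxb1 was at about 1.0 read, and Hoxa3 was far under the 0.0336 FPKM that 1 read on it was worth in that library. Reads carry no molecular identifiers, so that several reads may stem from 1 molecule. With at least 0.5 of a read required, 3 members remained above 0.

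A count of 0 allows up to 3 reads, and the FPKM worth 3 reads sets what these zeros can show. Over the 39 members this limit ran from 0.113 to 0.508 in the deepest adult library and from 0.325 to 1.46 in the shallowest, where its median was 0.521. At E16.5 it ran from 0.0648 to 0.358, with medians of 0.104 to 0.128. For each member the limit rests on the transcript with the longest coding sequence. Among these transcripts that of Hoxa9 is the longest (3226 bases), with the lowest limit, and that of Hoxa6 the shortest (874 bases), with the highest. Some members have a longer annotated transcript, as Hoxd11 with 3367 bases against the 1111 used. For Hoxd8 the limit in the adult libraries was 0.313, 0.141 and 0.404. A level like the 0.214 of E16.5 replicate 2 lay under it in adult replicates 1 and 3, where a 0 does not exclude that level. In adult replicate 2 that level lay above the limit. A limit is not a floor of detection, since Hoxb1 was listed at 0.0337 in E16.5 replicate 2, under its limit of 0.104 there. For Hoxb7 the adult limits of 0.698, 0.314 and 0.900 lay under its 1.27. These limits cover counting error only.

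**Figure D2:**
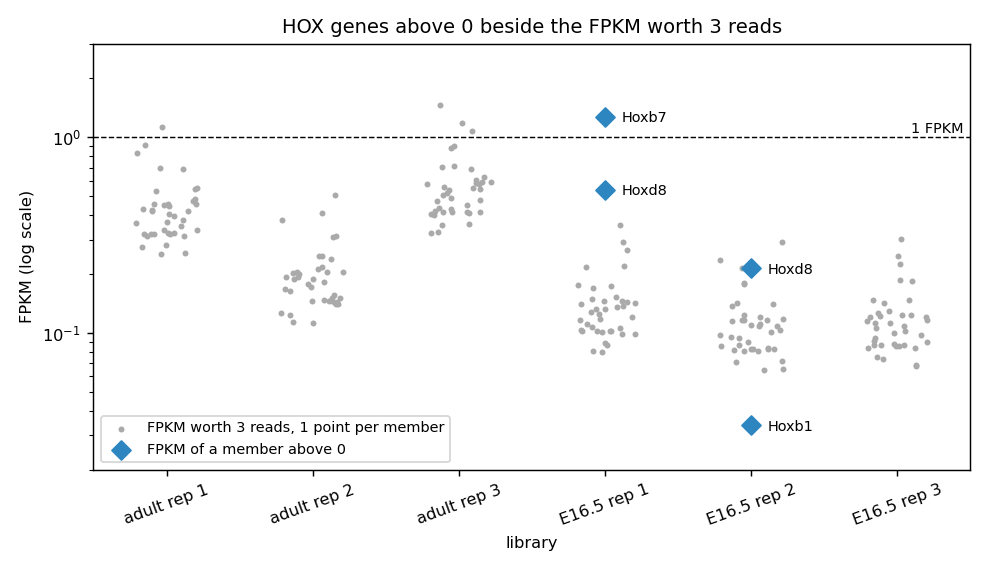
FPKM (log scale) of the HOX genes above 0 (diamonds) beside the FPKM worth 3 reads of each of the 39 members (grey points) in the 6 libraries; Hoxa3, at 6.79e-07, lies below the axis. The values of Hoxb7 and Hoxd8 in E16.5 replicate 1 lie above all limits of that library, Hoxb1 lies below them, and the dashed line marks 1 FPKM.

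A 0 in this table can also be a failed estimate. Ttr, the thyroid hormone carrier that defines ChP epithelium, was listed at 20922, 31302 and 29741 FPKM in the adult libraries and at 0 in all 3 E16.5 libraries. Of 76 cytosolic ribosomal protein genes, 9 (11.8%) were at 0 in all 6 samples. That set was taken by symbol, so that paralogs which not every cell uses may be among the 9. All 18 epithelial markers were above 0 in at least 1 sample. Without Ttr the sum of the other 17 was 20200 to 25500 FPKM in the adult and 4500 to 5020 FPKM at E16.5. Most of the adult sum was 1 gene, Enpp2, at 14886 to 18732 FPKM in the adult and 242 to 303 FPKM at E16.5. By limma, 8 of the 18 markers, among them Ttr, were called higher in the adult and 3 higher at E16.5. These are 44.4% and 16.7%, beside 2.12% and 8.83% of all genes tested. How many zeros of the HOX genes are of this kind was not tested, and they are given as listed at 0.

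The question of the design is whether expression differs between the adult and the E16.5 ChP. No HOX gene had a mean FPKM above 1 over the 6 samples, so that 0 of 39 members entered the limma fit, in which 1270 of 11601 genes were called (10.9% in either direction, 2.12% higher in the adult and 8.83% higher at E16.5). The highest mean was 0.212 for Hoxb7, followed by 0.126 for Hoxd8. With the filter lowered to a mean of 0.1, Hoxb7 and Hoxd8 were tested and 0 of 2 were called (limma adjusted p = 0.525 and 0.526), beside 7.89% of all genes tested. With no filter, 4 members were tested by limma and 0 were called, beside 6.86% of all genes, and 0 had an unadjusted p under 0.05 (adjusted p = 0.319 for Hoxd8, 0.477 for Hoxb7, 0.882 for Hoxb1 and 1 for Hoxa3). A two-sided exact permutation test gave p = 0.4 for Hoxd8 and p = 1 for each of the other 3 (adjusted over the 4 tests, p = 1 for all). In such a test 3 samples against 3 cannot go below 0.1. Here each p was fixed by which libraries were above 0, whatever their FPKM, so that the permutation test cannot decide. No fold change is given, because the adult libraries were listed at 0. A difference between the ages in these genes was thus not shown, and a 0 does not exclude levels under the limits given for each library.

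The FPKM of all 39 members summed to 1.81 in E16.5 replicate 1, to 0.248 in replicate 2 and to 0 in replicate 3, and to 0 in each adult library. Most of the signal of the HOX genes thus came from 1 library. Without it, 2 members (Hoxb1 and Hoxd8) were above 0. The same library stood apart in neuronal genes. All 14 markers of neurons and neural progenitors summed to 114 FPKM there, against 9.90 and 7.29 in the other E16.5 libraries and 2.36 to 4.97 in the adult ones, and Tubb3, a tubulin of young neurons, was at 36.2 FPKM there and at 0.623 and 0.134 in the other E16.5 libraries. E16.5 replicate 1 was also the highest in the 6 globin and other red blood cell genes of the table, with 324 FPKM against 54.1 and 108. So it was in markers of macrophages (8.48 against 0.584 and 7.14) and of oligodendrocytes and astrocytes (21.4 against 7.21 and 16.1). It was not the highest in mesenchyme and fibroblasts (102 against 90.4 and 109) or endothelium (17.2 against 12.7 and 40.9). In cell cycle genes it was the lowest of the E16.5 libraries (54.1 against 93.5 and 103). Of the 8 markers of spinal cord and caudal neural tube neurons, 7 were at 0 in all 6 samples, and Isl1, a gene of motor neurons, was at 2.09 FPKM in that library alone. The part of RNA from other cells in the values of Hoxb7 and Hoxd8 was not tested, and in such samples fewer cells of a type and less RNA per cell cannot be told apart.

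The noncoding genes inside the clusters were also nearly all at 0. Of 15 in the table, among them Hotair of HOXC, Hotairm1 of HOXA and the microRNA genes Mir10a and Mir10b, 14 were at 0 in all 6 samples. The exception was Hoxaas2, an antisense gene of HOXA, at 1.40 FPKM in E16.5 replicate 1 and at 0 elsewhere. A noncoding gene on the same chromosome but outside the span of HOXB, D030028A08Rik, was at 5.36, 0 and 0 FPKM in the adult and at 1.43, 2.97 and 2.38 FPKM at E16.5 (limma adjusted p = 0.547), and is not counted among the 15. In that library Hoxaas2, Hoxb7 and Hoxd8 were the 3 genes of the clusters above 0.5 FPKM.

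Most genes outside the clusters were expressed. The 5 nearest protein-coding genes on each side of each cluster were taken among those whose GENCODE M21 symbol is in the table. Of these, 33 of 40 were above 0 in at least 1 sample and 29 had a mean FPKM above 1. A gene listed under another symbol was passed over. Lnp, a neighbour of the clusters, was not among the 40. It was at 10.2, 3.52 and 1.23 FPKM in the adult and at 4.16, 3.71 and 0.982 FPKM at E16.5. Over all protein-coding genes of the table, 31.9% were at 0 in all 6 samples and 54.5% had a mean FPKM above 1. Some of the nearest neighbours were at 0 as well. Evx1, 52.6 kb from HOXA, and Evx2, 8.8 kb from HOXD, are even-skipped homeobox genes that sit at the posterior ends of these clusters, and both were at 0 in all 6 samples, as was Skap1, 96.3 kb from HOXB. On the far side of HOXD, Mtx2, a mitochondrial outer membrane protein gene 60.7 kb away, was at 9.92, 18.6 and 0 FPKM in the adult and at 27.9, 33.5 and 14.1 FPKM at E16.5. Calcoco1, 198.9 kb from HOXC, was at 108 to 128 FPKM in the adult and at 175 to 264 FPKM at E16.5, and Tax1bp1, 452.8 kb from HOXA, was at 55.5 to 95.4 and at 118 to 166 FPKM.

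**Figure D3:**
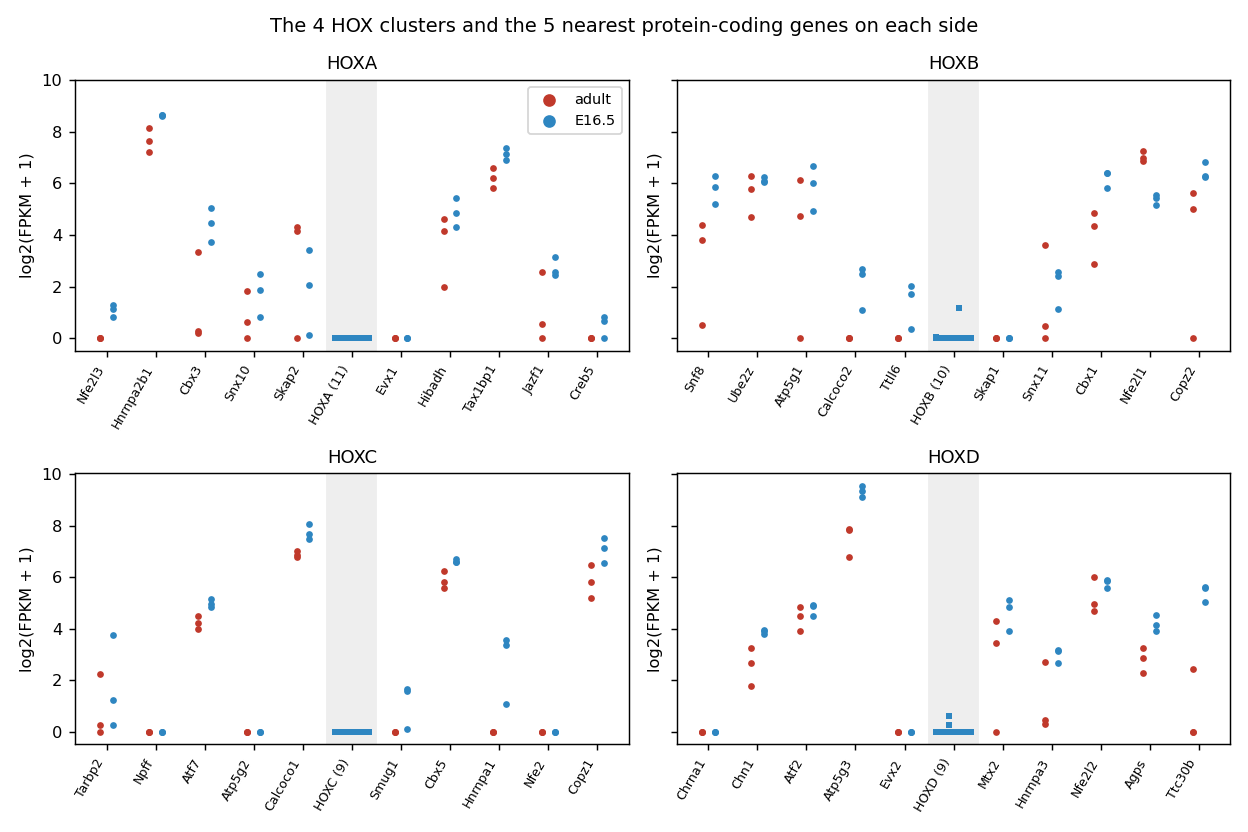
Level as log2(FPKM + 1) of the 5 nearest protein-coding genes, matched by symbol, on each side of each HOX cluster. Genes are in the order of the chromosome, with the cluster in the grey band (number of members in parentheses). Each sample has 1 point (red for adult and blue for E16.5). Points for the HOX genes are squares in order of paralog number, nearly all at 0, while Hnrnpa2b1, Tax1bp1, Nfe2l1, Calcoco1 and Atp5g3 rise above 5 in every sample.

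Of the 29 flanking genes tested by limma, 1 was called higher in the adult and 3 higher at E16.5, with a median log2 difference of -1.28 (adult minus E16.5, on the log2(FPKM + 1) scale), beside a median of -0.86 over all genes tested. The share called, 13.8%, was near the 10.9% of all genes tested. Nfe2l1, a transcription factor of proteasome genes beyond HOXB, was higher in the adult by 1.65 (SE 0.28, limma adjusted p = 0.0167). Those higher at E16.5 were Cbx1, a heterochromatin protein beyond HOXB (-2.18, SE 0.55, limma adjusted p = 0.0461), Atp5g3, a subunit of ATP synthase beyond HOXD (-1.83, SE 0.34, adjusted p = 0.0218), and Ttc30b, a protein of transport in cilia beyond HOXD (-4.60, SE 0.79, adjusted p = 0.0166).

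Among the homeobox classes the HOX genes had the highest share of zeros. Of 152 homeobox genes outside the HOX clusters in the table, 90 (59.2%) were at 0 in all 6 samples. The share was 82.0% (50 of 61) in the other genes of the ANTP class, to which HOX genes belong, 68.8% (11 of 16) in the POU class, 59.4% (19 of 32) in the PRD class, 33.3% (4 of 12) in the LIM class, 28.6% (2 of 7) in the CUT class and 16.7% in the SINE class (1 of 6) and the TALE class (3 of 18). These classes were set after the values of the HOX genes were seen, and no test was made between them. The 8 ParaHox and even-skipped genes, the closest relatives of the HOX genes (Cdx1, Cdx2, Cdx4, Gsx1, Gsx2, Pdx1, Evx1 and Evx2), were all at 0 in all 6 samples. Homeobox genes of the ANTP class that were expressed were Msx1, at 94.6 to 174 FPKM in the adult and 157 to 230 at E16.5, and at lower levels Msx2 and Emx2.

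**Figure D4:**
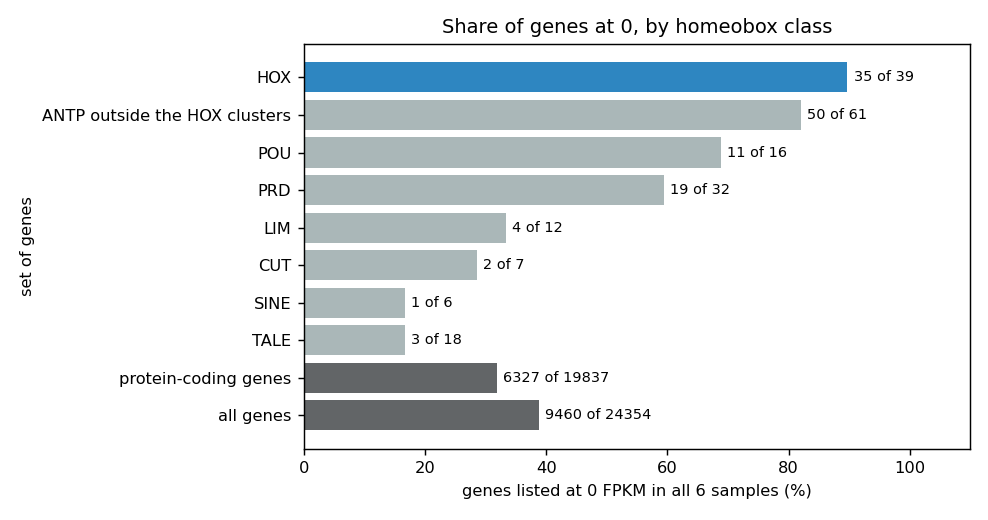
Share of genes listed at 0 FPKM in all 6 samples (x axis, %) in the HOX genes (blue), in homeobox classes outside the HOX clusters (light grey) and in the whole table (dark grey), with the counts beside the bars. The bar of the HOX genes (35 of 39) is the longest, and those of the SINE and TALE classes are the shortest.

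The TALE genes of the PBX, MEIS and PKNOX families encode the proteins that bind DNA together with HOX proteins, and also act without them. All 9 were above 0 in at least 1 sample. Of 7 tested, 0 were called higher in the adult and 1 higher at E16.5 (14.3%, beside 8.83% of all genes tested), with a median log2 difference of -1.66, beside -0.86 over all genes. The call was Pbx3, at 0.503, 1.91 and 0 FPKM in the adult and at 9.79, 8.91 and 9.85 FPKM at E16.5 (-2.68, SE 0.67, limma adjusted p = 0.0449). Its groups did not overlap. Pknox2, an abundant gene of this list, is given though it had no call. It was at 12.6, 12.4 and 6.54 FPKM in the adult and at 29.6, 31.0 and 41.3 FPKM at E16.5, without overlap but with an adjusted p of 0.0539. Meis1 and Meis2 were at 0 in the adult libraries, and at E16.5 Meis2 was at 7.31, 4.26 and 0.429 FPKM.

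**Figure D5:**
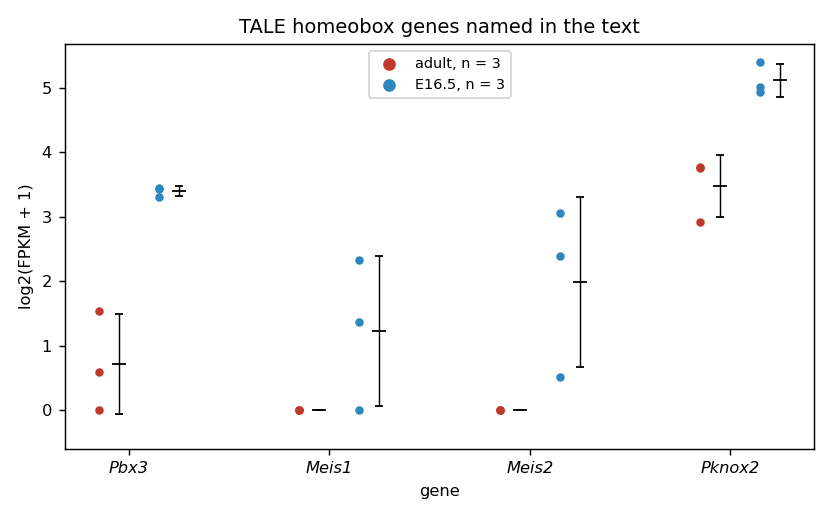
Level as log2(FPKM + 1) of the 4 TALE genes named in the text in each adult (red) and E16.5 (blue) sample, with the mean and SD of 3 samples in black. Pknox2 is above 2 in all samples, and the 2 ages lie apart for Pbx3, Meis2 and Pknox2 and overlap for Meis1.

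The Polycomb proteins keep HOX clusters repressed, and the Trithorax and MLL proteins keep them active. Of 28 Polycomb genes, 27 were above 0 and 26 were tested, of which 0 were called higher in the adult and 3 higher at E16.5 (11.5%, near the 8.83% of all genes tested), with a median log2 difference of -1.19, beside -0.86 over all genes. Of 6 cell cycle markers tested, 0 were called higher in the adult and 1, Top2a, higher at E16.5, with a median log2 difference of -2.15, and their part in the differences of Polycomb genes was not tested. Ezh2, the enzyme that methylates lysine of histone H3, was at 1.68, 1.57 and 0 FPKM in the adult and at 17.2, 8.76 and 13.6 FPKM at E16.5 (-2.85, SE 0.70, limma adjusted p = 0.0423). Rbbp7, a histone-binding subunit, was at 6.15 to 26.2 FPKM in the adult and at 106 to 133 FPKM at E16.5 (-3.25, adjusted p = 0.0136). Cbx8, a reader of methylated histone, was at 0 to 0.379 and at 8.89 to 14.9 FPKM (-3.38, adjusted p = 0.0201). All 12 Trithorax and MLL genes were tested, with 0 called higher in the adult, 1 higher at E16.5 (8.33%, near the 8.83% of all genes tested) and a median log2 difference of -0.93. The call was Dpy30, a core subunit of the MLL complexes, at 22.2 to 32.6 FPKM in the adult and at 150 to 275 FPKM at E16.5 (-2.94, SE 0.35, adjusted p = 0.0054).

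Regional genes of the brain were set beside the HOX genes. Of 15 forebrain and midbrain genes 11 were above 0, and of 5 tested 0 were called higher in the adult and 1, Otx2, higher at E16.5 (beside 8.83% of all genes tested), with a median log2 difference of -1.16. Otx2, the homeobox gene of forebrain, midbrain and ChP, was at 150, 166 and 184 FPKM in the adult and at 361, 426 and 340 FPKM at E16.5 (-1.16, SE 0.23, limma adjusted p = 0.0251). Of 13 hindbrain genes, 6 were at 0 in all 6 samples, and 1 was tested with no call. Gbx2, which sets the border of midbrain and hindbrain, was at 1.95 FPKM in E16.5 replicate 1 and at 0 in the other 5. Egr2, a gene of the third and the fifth rhombomere that activates HOX genes, was at 0 in all 6 samples.

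Retinoic acid switches HOX genes on through its receptors. Of 15 genes for its receptors, enzymes and binding proteins, 13 were above 0 and 6 were tested, of which 0 were called higher in the adult and 1 higher at E16.5 (16.7%, beside 8.83% of all genes tested), with a median log2 difference of -0.84. The call was Crabp2, which carries retinoic acid to the receptors, at 0 in the adult libraries and at 65.9, 14.7 and 23.7 FPKM at E16.5 (limma adjusted p = 0.0108). The genes Aldh1a1, Aldh1a2 and Aldh1a3, for the enzymes that make retinoic acid, were at 0 in the adult, and at E16.5 Aldh1a2 was at 0.0387, 0.674 and 0 FPKM. Aldh1a1 was at 3.93 and Aldh1a3 at 0.954 FPKM in E16.5 replicate 3, and both were at 0 in the other E16.5 libraries. The median difference of all genes tested moved from -0.86 to -0.56 with median-ratio scaling, -1.46 with the same sum of FPKM and 0.01 with quantile normalization. The medians of the flanking, TALE, Polycomb, Trithorax, forebrain and midbrain, and retinoic acid genes stayed below 0 under each, between -2.14 and -0.22, and are to be read against that of all genes. Each of the 11 calls named beyond the HOX genes was lost under 2 or more of 15 alternative settings, and all 11 kept their direction in each. Without E16.5 replicate 1 or replicate 2 all 11 calls were lost, and without E16.5 replicate 3 the number lost was 10. Quantile normalization ended 5 of them, median-ratio scaling 4. Otx2 lost its call under 7 of 15, with limma adjusted p of 0.00621 to 0.144 over them all.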

How the data were processed

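Reads of 50 bases were mapped by the authors with STAR to mm10, and the deposited FPKM per gene came from Cuffquant (Cufflinks). The annotation, strand setting and any scaling beyond FPKM are not given in the sources used here. Libraries were made with ribosomal RNA depletion. Samples were grouped by the age in their labels. FPKM were used as deposited, log2(FPKM + 1) of genes with a mean above 1 was tested with limma 3.58.1 in R 4.3.3 (intensity trend, no covariate, Benjamini-Hochberg threshold 0.05), and the change is adult minus E16.5. The fit was checked on simulated data. Single members were compared by exact permutation tests. The authors tested read counts, which were not analysed here. Whether a replicate is 1 animal or a pool is not settled, so that p-values measure the spread between these samples.

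The members and gene lists were chosen with earlier results of these data known. All 39 members are accounted for, and the 3 highest by mean FPKM are named when none has a mean above 1. From each list up to 3 called genes per direction are named or, where none is called, the 2 highest. Hoxa3, Hoxaas2, Pknox2, Meis1, Meis2, Aldh1a1, Aldh1a2, Aldh1a3, D030028A08Rik, Egr2, Tubb3, Isl1, Msx1, Msx2, Emx2 and Lnp were named after their values were seen. The flanking genes were taken by position among genes matched by symbol. Some genes that the rule takes are not reported here. The FPKM of 1 read was estimated with the transcript length minus 200 bases, from transcripts over 1000 bases, by an estimator settled after its values were seen.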

Additional observations from a re-analysis of the deposited data

How the results depend on the processing

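The number of HOX genes called stayed at 0 under all 15 alternatives, of which 2 tested any member. The mean of the summed FPKM at E16.5 was 0.686 (SD 0.982), 0.574 with median-ratio scaling, 0.892 with the same sum of FPKM, and 0.124, 0.906 and 1.03 without E16.5 replicates 1, 2 and 3. Its SD is above its mean, so that no fall could pass it. Without E16.5 replicate 1, 2 members were above 0 in place of 4 (range 2 to 4 over the libraries left out). Over all genes, 1270 were called (246 higher in the adult, 1024 higher at E16.5), 3319 after scaling to the same sum of FPKM (119 and 3200), and 43 to 1923 with a library left out. The split was 349 and 658 after median-ratio scaling and 569 and 504 after quantile normalization. Leaving out an E16.5 library gave the lowest counts, 57, 43 and 112, and leaving out adult replicates 1, 2 and 3 gave 687, 1923 and 1721. The 11 named genes outside the clusters were called in 4 to 13 of 15 alternatives and in 2 to 4 of the 6 that leave out a library. Reads per library limit what a 0 shows, most in adult replicate 3.

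Replicates of both ages carry the numbers 1 to 3 in the labels, and the deviations of same-numbered samples did not correlate (r = 0.000895, 0.0439 and 0.015), so that the numbers are not taken to pair them. With the replicate block, 564 genes and 0 HOX genes were called, 5 of the 11 named calls were lost, and the block left 0 members to test at the filter of 1 FPKM.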
